A study of Mus musculus with 4 samples.

Results

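The genes described here code for the machinery that acidifies lysosomes and for the proteases that work in them: 25 proton pump genes, with symbols that start with Atp6v or Atp6ap, and 17 cathepsin genes, with symbols of Cts plus a single letter. They were taken by symbol, with earlier results of these data known, and make up 42 of the 30905 genes in the count tables, and 1 cathepsin is not analysed here. Single-cell RNA of mouse pancreatic islets was counted in 4 libraries, 1 per group. The groups were late db/db with intervention at 98 days of age, late db/db at 98 days, early db/db at 70 days and a normal control at 98 days. The labels do not describe the intervention or say how many mice went into a library. The genotype db/db(C57BL/KsJ) is written on all 4 samples, the control included, while the growth protocol names male C57BL/6 mice beside db/db mice, which leaves the control's strain uncertain. A db/db mouse lacks the signalling form of the leptin receptor and becomes obese and diabetic. The db/db mice were allocated at random once hyperglycemic, per the labels' protocols.

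Levels are sums of UMIs (molecules told apart by a barcode on each) over the cells of a class and library. They are given as CPM, the UMIs of a gene per 1000000 UMIs of genes other than mitochondrial genes and 7 islet hormone genes. Cells were clustered without the member genes, and clusters were named from markers as beta-, alpha-, delta-, macrophage- and endothelial-like. In the order of the groups above, beta-like cells numbered 3295, 817, 1619 and 2230, alpha-like cells 588, 164, 837 and 1099, and delta-like cells 281, 134, 310 and 519. Macrophage-like cells numbered 94, 99, 174 and 85, and endothelial-like cells 222, 124, 425 and 205. Of 5983 late db/db cells, 1861 lay in a B-like cluster, against 11 of 4458 control cells. T- and NK-like clusters held 722, 668, 495 and 126 late db/db cells, against 4, 1, 2 and 4 control cells. A fibroblast-like cluster led by Ccl21a held 130 and 0. The part of this difference in the macrophage- and endothelial-like results was not tested. The libraries held between 120934779 and 166034254 UMIs, and pairs of libraries shared 8 to 21 cell barcodes. With 1 library per group there is no spread between animals and no test, and the intervals in brackets are 95% intervals that cover counting error only. A member entered a comparison with 50 CPM or more in 1 of its libraries and 50 UMIs or more in both together, and was called higher or lower at a difference of 2-fold or more. Early db/db and the control also differ in age. On GRCm38, in the GENCODE M21 annotation, members described below include Ctsl at chr13:64359337-64370890 (minus strand), Ctsd at chr7:142375911-142388038 (minus strand), Atp6v1a at chr16:44085402-44139705 (minus strand) and Atp6v0d2 at chr4:19876841-19922605 (minus strand).

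The vacuolar proton pump is a rotary machine. Its V1 part, in the cytosol, burns ATP in a ring of A and B subunits, and its V0 part, in the membrane, carries protons on a ring of small proteolipids past the a subunit. Accessory subunits coded by Atp6ap1 and Atp6ap2 help to assemble the pump. In endocrine cells it acidifies the secretory granules in which prohormones are processed, as well as lysosomes. Most cathepsins are made as inactive precursors and mature in acid compartments. Cathepsins B, C, F, H, L, O, S and Z are cysteine proteases, D and E are aspartic proteases, and A and G are serine proteases. Transcription factors of the TFEB family activate lysosomal genes through a palindromic promoter element, the CLEAR element, whose core is CACGTG.

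Promoters that hold this core are shown for some members of both families. Atp6v0d1 and Atp6v0e are among them, though neither was called 2-fold apart in any class. Of the members called below, Ctss, Ctso, Atp6v1d and Atp6v1e1 had promoters with 0 matches. A link between the core and the levels was not tested. RefSeq promoters on GRCm38.p6 ran from 250 bases before to 50 after a start in RefSeq. They were at hand for 31 of the 42 members, as 35 promoters. TCACGTGA, a palindrome and so the same on both strands, stood in 5 member genes, Ctsa, Ctsd, Atp6v0d1, Atp6v0e and Atp6v1a. That was 14.3% of the 35 promoters, against 0.974% of all 32851 promoters in the table. The shorter palindrome CACGTG, which lies inside it, stood in these and in Atp6v0b, Ctsf and Ctsl, or 22.9% of the member promoters against 7.15% of all. The longer CLEAR palindrome stood in 0 member promoters and in 0.326% of all. The 250 bases before the start are given for Ctsd and Ctsa, and 30 bases around the match for 4 further members. Capitals mark TCACGTGA, or CACGTG in Ctsl, a second match of Ctsa lies after its start, and a further CACGTG of Ctsd is left in lower case.
Ctsd, chr7:142387828-142388077, minus strand: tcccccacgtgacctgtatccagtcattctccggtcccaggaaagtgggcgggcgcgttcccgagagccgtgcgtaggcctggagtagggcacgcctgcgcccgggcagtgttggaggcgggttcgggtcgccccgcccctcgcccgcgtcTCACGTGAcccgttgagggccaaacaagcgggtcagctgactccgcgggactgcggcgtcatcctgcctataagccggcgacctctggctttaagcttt
Ctsa, chr2:164833523-164833772, plus strand: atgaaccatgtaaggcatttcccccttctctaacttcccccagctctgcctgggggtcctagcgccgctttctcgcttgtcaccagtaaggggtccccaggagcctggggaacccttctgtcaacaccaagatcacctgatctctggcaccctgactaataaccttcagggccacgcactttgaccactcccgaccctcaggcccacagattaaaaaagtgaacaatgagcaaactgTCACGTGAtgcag
Atp6v1a, chr16:44139373-44139402, minus strand: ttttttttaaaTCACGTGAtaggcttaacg
Atp6v0d1, chr8:105566050-105566079, minus strand: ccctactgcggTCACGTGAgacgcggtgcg
Atp6v0e, chr17:26676387-26676416, plus strand: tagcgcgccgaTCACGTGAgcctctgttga
Ctsl, chr13:64370738-64370767, minus strand: gcgttagaagcCACGTGctgatctaaattc
Counted from the RefSeq start, the match began 99 bases before in Ctsd, 13 in Ctsa and 132 in Atp6v1a. It began 4 bases before in Atp6v0d1, 236 in Ctsl, and after the start in Atp6v0e. These starts are not the GENCODE gene bounds, by which the matches of Ctsd, Ctsa, Atp6v1a, Atp6v0e and Ctsl lie inside the gene. Among those shown, only the match of Atp6v0d1 lies before the gene. Another RefSeq promoter of Ctsa held 0 matches. A match describes the letters and does not show that a factor binds there.

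Cathepsins set the cell classes apart more than the pump did. Of 26 members ranked by class in all 4 libraries, 7 were highest in macrophage-like cells in each, and all 7 were cathepsins: Ctsa, Ctsb, Ctsc, Ctsd, Ctsh, Ctss and Ctsz. Over all 4893 genes ranked the share was 9.73%. Ctss, a protease of antigen processing, had 3883 CPM in the intervention library, 1743 in late and 3199 in early db/db, and 4685 in the control in macrophage-like cells. In beta-like cells it had 1.18, 2.28, 0.653 and 0.817 CPM in the same order. Ctsc, which activates granule proteases of immune cells, had 873 CPM in the intervention library, 798 in late and 1048 in early db/db, and 939 in the control in macrophage-like cells and at most 1.07 CPM in beta-like cells. The level of Ctsb in macrophage-like cells was 8.07 to 15.1 times that of the next class, and the level of Ctsd 3.07 to 12.4 times. Ctsa, also called protective protein, had 618, 664, 542 and 409 CPM there in the same order, or 5.79 to 8.38 times the next class.

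Outside macrophages most differences between classes were smaller. Ctsh was 4.97 to 15.4 times as high in delta- as in beta-like cells, and Ctsz 2.11 to 5.19 times as high in alpha- as in beta-like cells. Ctsl was highest in endothelial-like cells in 3 libraries, and in early db/db it was highest in delta-like cells, at 768 against 746 CPM in endothelial-like cells. Ctso, Ctsf and the pump gene Atp6v0e were highest in delta-like cells in all 4, as were 12.3% of all genes. Ctsh, an aminopeptidase, had 50.3 CPM in the intervention library, 49.1 in late and 50.7 in early db/db, and 76.7 in the control in delta-like cells, while beta- and alpha-like cells lay between 4.97 and 10.8 CPM. Of the pump genes, Atp6ap1, Atp6ap2, Atp6v0a1 and Atp6v1d were highest in beta-like cells in all 4 libraries, by at most 1.68 times the next class, and 14.6% of all genes were. Atp6v0a2 was highest in endothelial-like cells, as were 18% of genes. No member was highest in alpha-like cells in all 4 libraries, where 4.23% of genes were.

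**Figure D1:**
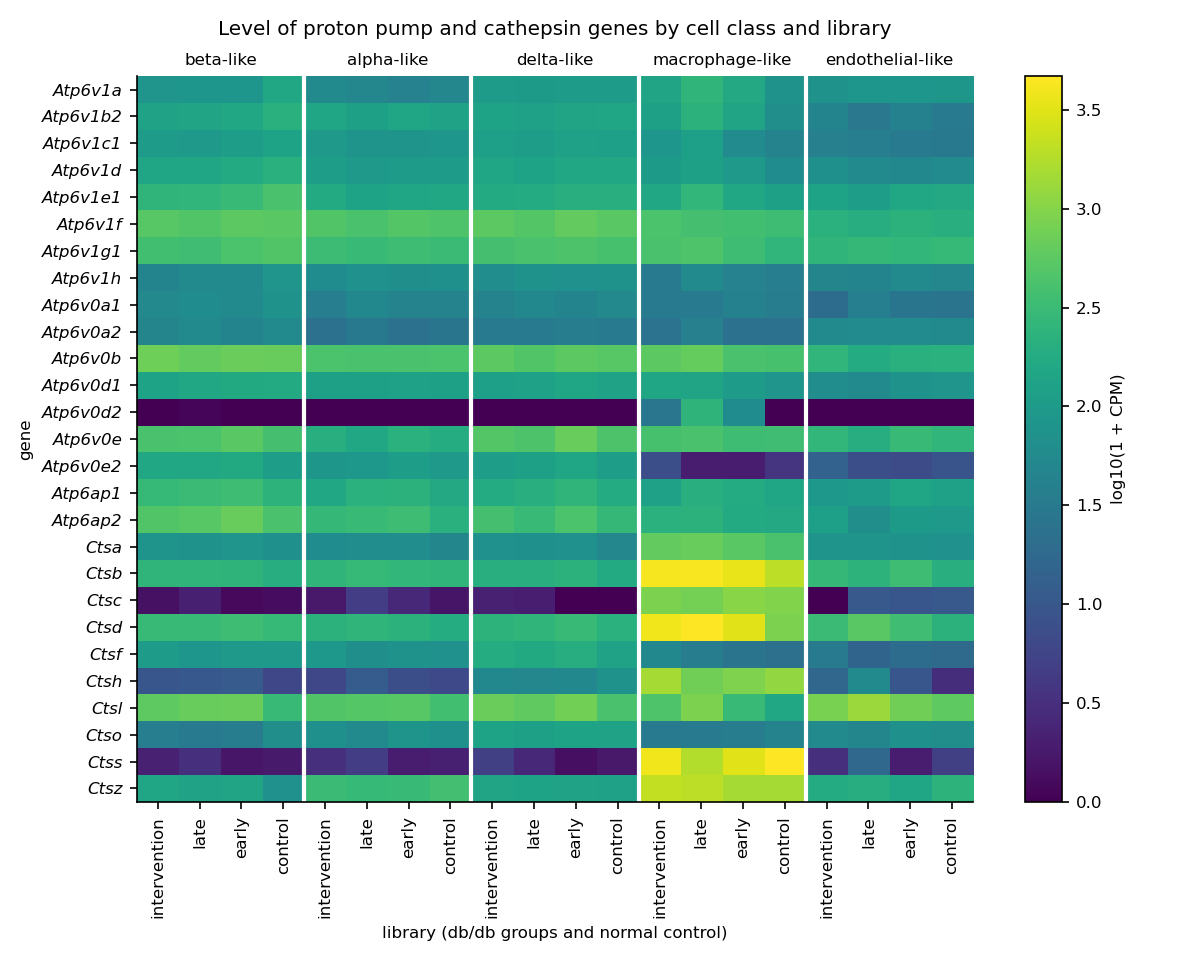
Level of each pump and cathepsin gene with at least 50 CPM somewhere, as log10(1 + CPM), by cell class and, within a class, by library. Ctsb, Ctsd and Ctss have their highest values in macrophage-like cells, most pump genes are more even across classes, and Atp6v0d2 is seen in macrophage-like cells of the db/db libraries.

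Which copy of a subunit was used differed by class. Atp6v1b2 held all UMIs of the B subunit and Atp6v1e1 all of the E subunit, since Atp6v1b1 and Atp6v1e2 had 0 UMIs in the 5 classes. For the e subunit, Atp6v0e2 held 27.1%, 26.4%, 24.0% and 23.0% of UMIs in beta-like cells of the intervention, late, early and control libraries, against 0.220% to 1.63% in macrophage-like cells. Of the UMIs of Atp6v0a1, Atp6v0a2 and Atp6v0a4 together, Atp6v0a2 held 60.9% to 75.0% in endothelial-like and 41.0% to 46.2% in beta-like cells. Most of the rest came from Atp6v0a1. Tcirg1, a V-ATPase gene outside the symbol rule, was not counted in these shares. Atp6v1c1 held at least 99.3% of the C subunit and Atp6v1g1 at least 97.1% of the G subunit in every class and library. Atp6v0a4, the a subunit known from kidney, had 51 UMIs in the intervention library, 33 in late and 20 in early db/db, and 3 in the control in beta-like cells, at most 1.18 CPM.

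Of the 42 members, 17 pump genes and 10 cathepsins reached 50 CPM in some class and library, 6 pump genes and 3 cathepsins stayed below it, and 2 pump genes and 4 cathepsins had 0 UMIs. Those at 0 were Atp6v1b1, Atp6v1e2, Ctsj, Ctsm, Ctsq and Ctsr. Ctse, an aspartic protease, had 14 UMIs in all 5 classes together. Atp6v0c, which codes for the proteolipid of the ring, had at most 7.13 CPM in any class. The GENCODE M21 annotation holds processed copies of it on chromosomes 6 and 7, which are not in the gene list. Whether shared reads lower its count was not tested, so its level is uncertain.

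In beta-like cells the clearest member was Ctsl, a cysteine protease of lysosomes that in mouse also processes prohormones. Its level was 573 CPM in the intervention library, 646 in late and 686 in early db/db, and 294 in the control. All 3 db/db libraries lay well above the control, at log2 ratios of 1.14 [1.1, 1.18] for late db/db and 1.23 [1.19, 1.26] for early db/db. The intervention library lay close to late db/db, at -0.18 [-0.20, -0.15]. Ctsl was the only one of 23 members called higher in late db/db, where 4.46% of all 4189 genes were, and 16.2% of genes were 2-fold apart. It was also the only one of 23 called higher in early db/db, where 5.6% of genes were higher, 17% lower and 22.6% apart. Under each alternative that was run its ratio stayed above 2-fold, between 1.09 and 1.8 for late and between 1.18 and 1.69 for early db/db on the log2 scale. These alternatives did not include the values within single clusters given below.

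Ctso lay on the other side. It had 36.6 CPM in the intervention library, 31.0 in late and 34.9 in early db/db, and 65.1 in the control, so that the control was the highest of the 4. The log2 ratio of late db/db to the control was -1.07 [-1.19, -0.96], the only member called lower, against 11.7% of all genes. With all UMIs as the denominator it was -0.41 and with TMM library sizes -0.76, no longer 2-fold. Ctsz, an exopeptidase, had 143 CPM in the intervention library, 127 in late and 139 in early db/db, and 71.7 in the control, just short of 2-fold at 0.83 [0.75, 0.91] for late db/db. For early db/db it was 0.95 [0.88, 1.03], and 0.33 once free RNA was subtracted. Ctsb and Ctsd differed less, with log2 ratios of 0.36 [0.31, 0.41] and 0.10 [0.06, 0.14] for late db/db against the control.

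Beta-like clusters were unevenly filled, since 2140 of the 2230 control cells fell in a cluster led by Ins1 and Ins2 that held 36 late db/db cells. Inside it, Ctsl had 486 CPM in 435 intervention cells, 491 in the 36 late db/db cells and 292 in the control cells. In a second shared cluster it had 541 CPM in intervention, 675 in late and 687 in early db/db cells, and 314 in control cells. The control was the lowest in both, though in the first neither the intervention nor the late db/db cells reached 2-fold over it. The 14 macrophage markers summed to 297, 269.8, 232 and 169 CPM in beta-like cells of the intervention, late, early and control libraries, against 32263, 33668, 30841 and 30678 CPM in macrophage-like cells. The alpha cell markers other than Gcg summed to 21711, 13044, 14038 and 6188 CPM in beta-like cells in the same order. Peg3 among them was also a leading gene of a beta-like cluster at a higher clustering resolution. The 10 duct markers summed to 1999, 1846, 2230.0 and 1239 CPM. Both lists were lowest in the control as Ctsl was. The 11 acinar markers summed to 142, 346, 1804 and 155 CPM, the 5 erythroid markers to 496, 11.8, 327 and 12.5 CPM and the 12 T and NK cell markers to 1.37, 36.2, 0.849 and 0.294 CPM. Of the macrophage markers 14, 12, 13 and 14 were seen and of the alpha markers all in each library. The part of these in the result was not tested.

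**Figure D2:**
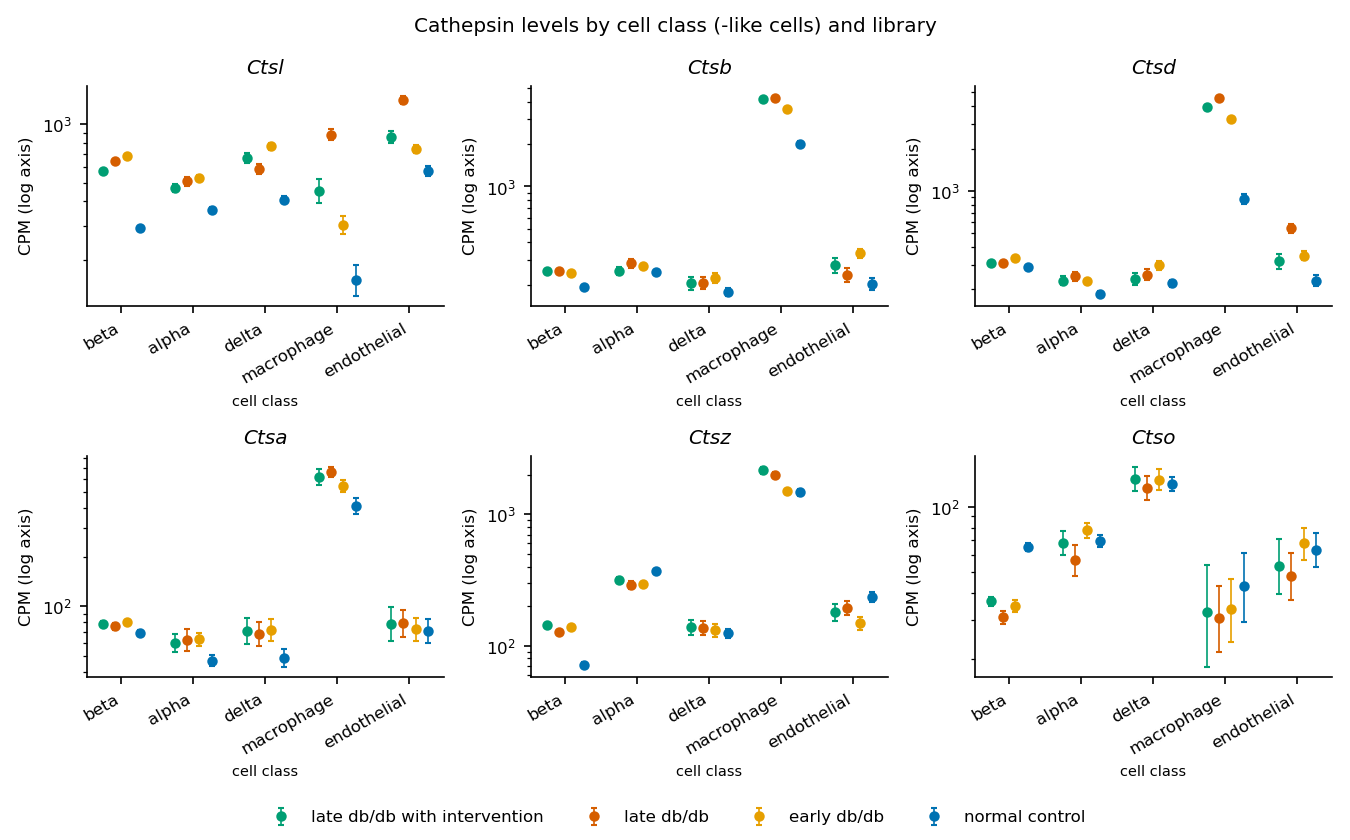
CPM (log axis) of 6 cathepsins by cell class, with 1 point per library and 95% counting intervals. The control point of Ctsl is the lowest of the 4 in each class, and Ctsz is lowest in the control in beta-like cells and highest in the control in alpha-like cells.

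In beta-like cells 0 of 16 pump genes reached 2-fold in either comparison with the control. Of all genes, 16.2% did so for the late db/db library and 22.6% for the early one. In late db/db all 8 V1 genes that entered lay below the control, with a median log2 ratio of -0.53 against -0.30 over all genes, though 7 of the 8 lay above it with all UMIs as the denominator. Atp6v1a, the catalytic A subunit, had 80.9 CPM in the intervention library, 84.5 in late and 84.3 in early db/db, and 157 in the control. Its log2 ratio was -0.89 [-0.96, -0.82] for late and -0.89 [-0.96, -0.82] for early db/db. Atp6v1b2, the B subunit beside it, had 128 CPM in the intervention library, 139.9 in late and 157 in early db/db, and 215 in the control. For both genes the 3 db/db libraries lay together below the control.

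Of the 6 V0 genes 4 lay below the control too, with a median of -0.05 in late db/db, and both accessory genes lay above it. Atp6ap1 had 289.6 CPM in the intervention library, 319 in late and 340.3 in early db/db, and 235 in the control. Atp6ap2, also known as the prorenin receptor, had 469.9 CPM in the intervention library, 521 in late and 647 in early db/db, and 418 in the control, with a log2 ratio of 0.32 [0.28, 0.35] for late and 0.63 [0.60, 0.66] for early db/db. Atp6v0d1, a V0 subunit on the cytosolic side, had 132 CPM in the intervention library, 157 in late and 169.7 in early db/db, and 175 in the control. Atp6v0a1, an a subunit, had 53.0 CPM in the intervention library, 60.9 in late and 55.7 in early db/db, and 76.9 in the control. The control was the highest of the 4 for both. Between intervention and late db/db 0 of 22 members were 2-fold apart, where 1.36% of genes were, 0.842% higher and 0.523% lower. Atp6v1a stood at -0.06 [-0.14, 0.01] in that comparison.

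The sign of most V1 and V0 ratios in late db/db rests on the scaling, which shifts all genes of a library alike. Both accessory genes lay above 0 under each scaling, and Atp6v1a stayed below 0 with all UMIs as the denominator. Genes of the denominator made up 37.1% of the UMIs of beta-like cells in the intervention library, 42.9% in late and 37.4% in early db/db, and 27.1% in the control. With all UMIs as the denominator, the V1 median of late db/db against the control was 0.13 and that of all genes 0.37, and with TMM library sizes they were -0.22 and 0.02. Relative to the median of all genes, a gap that no scaling can change, the V1 genes stood at -0.24, the V0 genes at 0.25 and the accessory genes at 0.68 in late db/db, with 1 of 8 V1 genes above that median and 1 of 6 V0 genes below it. The values for early db/db were -0.13, 0.24 and 0.82.

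**Figure D3:**
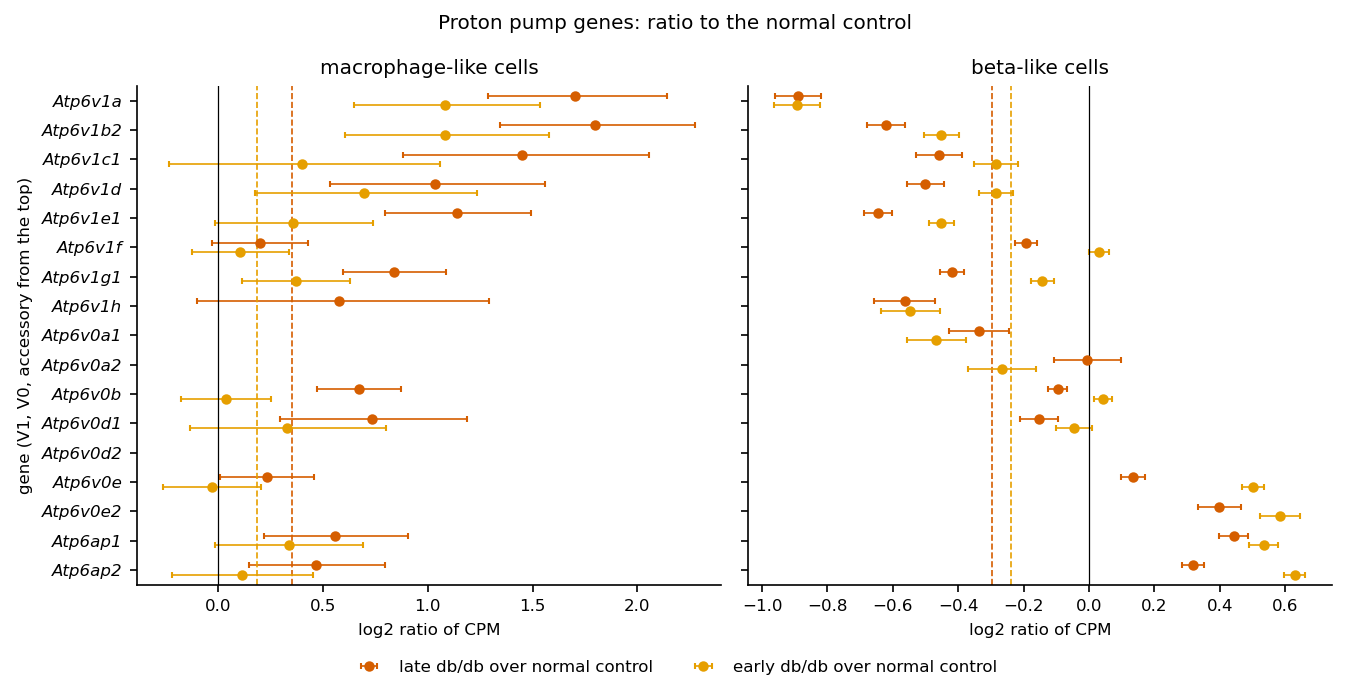
Log2 ratio of CPM to the normal control for pump genes that entered, in macrophage-like cells (left) and beta-like cells (right), with 95% counting intervals, and a dashed line at the median of all genes. V1 genes of late db/db lie right of 0 in macrophage-like cells and left of 0 in beta-like cells, where most lie right of 0 with all UMIs as the denominator, while Atp6ap1 and Atp6ap2 lie right of 0 in both.

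Other lysosomal genes of beta-like cells, from lists chosen with earlier results known, were mixed in late db/db against the control, where 4.46% of all genes were called higher and 11.7% lower. Of 7 further V-ATPase genes and assembly factors that entered, 1 was called lower and the median was -0.86. This was Ncoa7, a relative of proteins that bind the pump, with 33.7 CPM in late db/db, against 69.5 CPM in the control. Of 21 other hydrolases and cofactors, Ggh, a gamma-glutamyl hydrolase, was higher with 126 CPM in late db/db, against 50.2 CPM in the control. The peptidases Dpp7 and Tpp1 were lower, with a log2 ratio of -1.82 for Dpp7 and, for Tpp1, 25.5 CPM in late db/db, against 67.9 CPM in the control. Psap, the precursor of the saposins, was lower too, with 499.9 CPM in late db/db, against 1002 CPM in the control. The median of this list was -0.01.

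Beside the same shares of all genes, 1 of 4 genes of sorting was lower and 1 higher. The receptor Sort1 was lower with 35.6 CPM in late db/db, against 81.8 CPM in the control, and Gnptg, part of the enzyme that tags hydrolases with mannose 6-phosphate, was higher with 487 CPM in late db/db, against 205 CPM in the control. Of 9 regulators, Lamtor3, Fnip1 and Zkscan3 were lower, with log2 ratios of -2.47, -1.15 and -1.46. Of 8 membrane proteins and 3 cathepsin inhibitors or activators 0 reached 2-fold. The same 10 genes were called in early db/db, where 5.6% of all genes were higher and 17% lower, and beside them Cst3, the secreted cystatin C, was higher with 3039 CPM in early db/db, against 1243 CPM in the control, Dmxl2, which helps to assemble V1 on V0, was lower with 33.6 CPM in early db/db, against 76.3 CPM in the control, and Abca2 was lower with 23.3 CPM in early db/db, against 53.7 CPM in the control. Between intervention and late db/db 0 genes of these lists reached 2-fold.

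In alpha- and delta-like cells 0 members reached 2-fold in any of the 3 comparisons. In alpha-like cells 2.42% of all genes did in late db/db (1.48% higher, 0.946% lower), 4.19% in early db/db (2.27% and 1.92%) and 1.68% with intervention (0.679% and 1%). In delta-like cells the shares were 2.59% (1.71% and 0.878%), 3.62% (2.02% and 1.61%) and 1.33% (0.369% and 0.959%). Ctsl again had its lowest level in the control, with 470.1 CPM in the intervention library, 508 in late and 527 in early db/db, and 363 in the control in alpha-like cells. In delta-like cells it had 672, 588, 768 and 409 CPM in the same order. The accessory gene Atp6ap2 was higher in early db/db, with log2 ratios of 0.68 [0.60, 0.76] in alpha- and 0.62 [0.50, 0.74] in delta-like cells. The V1 genes lay near all genes here, with medians in late db/db of -0.08 in alpha- and -0.12 in delta-like cells, against -0.05 and -0.05 over all genes. Atp6v1a in delta-like cells had 105 CPM in the intervention library, 101 in late and 107 in early db/db, and 101 in the control.

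For Ctsz the endocrine classes differed. Alpha-like cells had 317 CPM in the intervention library, 289 in late and 292 in early db/db, and 372 in the control, so that the control was highest, where in beta-like cells it was lowest. The log2 ratio of late db/db to the control was -0.36 [-0.48, -0.25] in alpha-like cells. The difference between the classes was not tested. Ctsh in delta-like cells was lower in both db/db groups than in the control, at -0.64 [-0.98, -0.32] for late and -0.60 [-0.91, -0.30] for early db/db. Ctsf in delta-like cells had 185 CPM in the intervention library, 168 in late and 195 in early db/db, and 128 in the control.

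Some cathepsins had the same lowest library in every class, while the order of the others differed. Ctsa, Ctsb, Ctsd and Ctsl had their lowest level in the control in all 5 classes, or 4 of the 16 members that entered in every class, where 2.44% of 2007 genes did. Their highest level lay there for 0 members, where 1.49% of genes had it. The 4 did not include any of the 11 pump genes among the 16. The classes of a library share its preparation, so that they are not replicates. The set shrank to Ctsd and Ctsl with all UMIs as the denominator, to Ctsl once free RNA was subtracted, and to Ctsb and Ctsd without the endothelial clusters seen in late db/db alone. Within the 5 clusters that held at least 30 control cells and were shared between libraries, Ctsb and Ctsl were lowest in the control in every cluster, 2 of 17 members, where 2.53% of genes were. Ctsa and Ctsd were not. These clusters are 2 beta-, 1 alpha-, 1 delta- and 1 endothelial-like, so no macrophage-like cluster entered. In a shared beta-like cluster Ctsd had 301 CPM in intervention, 290.5 in late and 311 in early db/db cells, and 354 in control cells.

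Free RNA was estimated at 14.7% of UMIs in the intervention library, 9.52% in late and 24.6% in early db/db, and 16.4% in the control. Its profile came from the 888, 453, 669 and 612 barcodes under 1000 UMIs, in the same order. No barcode of the matrices had under 500 UMIs, so these may be small cells and not empty droplets. Insulin made up 32.3%, 6.31%, 9.45% and 30.2% of the profile, and the estimate is uncertain. Taking 1 such share from each class turned the log2 ratio of early db/db to the control in beta-like cells to -0.57 for Ctsb and -0.19 for Ctsd, against 0.33 and 0.23 before.

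Macrophage-like cells had the most members called. In late db/db 9 members were higher than in the control and 1 was lower, of 22, where 21.1% of all genes were higher, 5.82% lower and 26.9% apart. The higher ones were the pump genes Atp6v0d2, Atp6v1a, Atp6v1b2, Atp6v1c1, Atp6v1d and Atp6v1e1 and the cathepsins Ctsb, Ctsd and Ctsl, and the lower one was Ctss. In early db/db Atp6v0d2, Atp6v1a, Atp6v1b2 and Ctsd were higher, 4 of 21, against 11.7% of genes, with 3.37% lower and 15.1% apart. The cluster that held the most cells of the class differed by library. In the intervention library 71 of 94 cells lay in a cluster led by Apoe, C1qb and C1qa, and in late db/db 47 of 99 in one led by Pla2g2d. Of the early db/db cells 59 of 174 lay in one led by Apoe, C1qb and C1qc, and in the control 64 of 85 in one led by H2-Eb1.

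Ctsd, the main aspartic protease of lysosomes, had 3916 CPM in the intervention library, 4590.4 in late and 3217 in early db/db, and 877 in the control. Its log2 ratio to the control was 2.39 [2.27, 2.51] for late and 1.88 [1.75, 2.0] for early db/db, and under the alternatives it lay between 1.69 and 2.72 for late db/db. Ctsb, a cysteine protease, had 4158 CPM in the intervention library, 4272 in late and 3537 in early db/db, and 1996 in the control. Ctsl had 454, 882, 302 and 157 CPM in the same order, so that late db/db stood at the top and the control at the bottom. Ctss lay on the other side, with a log2 ratio of -1.43 [-1.51, -1.35] for late db/db against the control.

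Atp6v0d2 is the d subunit known from osteoclasts and macrophages. It had 12 UMIs in the intervention library, 266 in late and 68 in early db/db, and 0 in the control. These were 26.2, 242 and 60.6 CPM against a floor of 4.05 CPM, which is 3 UMIs over the control's macrophage-like cells. Late db/db was thus at 59.6 times this floor, the intervention library at 6.46 times and early db/db at 15 times. These multiples leave out the counting error of the db/db libraries. It made up 15.6%, 63.8%, 37.0% and 0% of the d subunit in the order of the libraries, the rest being Atp6v0d1.

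Cells with a UMI of Atp6v0d2 were 5 of 94 in the intervention library, 24 of 99 in late and 21 of 174 in early db/db, and 0 of 85 in the control, which allows a share of up to 3.53%. In endothelial-like cells, which serve as background, they were 0 of 222, 0 of 124, 0 of 425 and 0 of 205 at median depths of 3955 to 8355 UMIs. The median depth of macrophage-like cells was 5149, 8173, 6212 and 10278 UMIs, highest in the control. Thinned to 3000 UMIs per cell, the expected shares were 1.67%, 16.6%, 8.09% and 0%, against 5.32%, 24.2%, 12.1% and 0% unthinned, with 28, 16, 34 and 13 shallower cells left out.

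The 8 V1 genes that entered all lay above the control in macrophage-like cells of late db/db, with a median log2 ratio of 1.09 against 0.35 over all genes, and 7 of them did with TMM library sizes. Atp6v1a had 138 CPM in the intervention library, 251 in late and 163 in early db/db, and 77.0 in the control. Atp6v1b2 had 122, 225, 137 and 64.9 CPM in the same order. The V0 genes other than Atp6v0d2 had a median of 0.67, with Atp6v0d1 at 142 CPM in the intervention library, 137 in late and 103 in early db/db, and 82.4 in the control. Relative to all genes the V1 median stood at 0.73 in late and 0.22 in early db/db.

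Between intervention and late db/db 3 of 23 members were 2-fold apart in macrophage-like cells, where 21.3% of genes were. Atp6v0d2 was lower, at -3.21 [-4.18, -2.38], where 15.3% of genes were lower. Ctss at 1.16 [1.06, 1.25] and Ctsh at 1.01 [0.86, 1.15] were higher, where 5.99% of genes were. Ctsh had 1493 CPM in the intervention library, 744 in late and 925 in early db/db, and 1177 in the control, and its ratio lay between 0.86 and 1.21 under the alternatives. Ctsl at -0.96 and the V1 genes at a median of -0.62 lay below late db/db, and Ctsb at -0.04 and Ctsd at -0.23 were nearer to it.

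Few cells carried much of some values in the db/db libraries. A macrophage-like cluster with Lgals3 and Gpnmb among its leading genes held 11 of 94 intervention cells, 9 of 99 late and 23 of 174 early db/db cells, and 3 of 85 control cells. Ctsd and Ctsb are themselves among its leading genes, though no member was used to form the clusters. The 9 late db/db cells gave 24.2% of the macrophage UMIs of that library, 76.3% of its Atp6v0d2, 81.5% of its Ctsl, 58.7% of its Atp6v1a and 51.8% of its Ctsd. The 11 intervention cells gave 23.6% of macrophage UMIs, all 12 UMIs of Atp6v0d2, 43.3% of Ctsl, 31.7% of Atp6v1a and 56.5% of Ctsd. For the 23 early db/db cells the shares were 22.5%, 82.4%, 31.0%, 43.7% and 48.2%. The level of Atp6v0d2 in the intervention library, 6.46 times the floor, thus rests on this cluster alone. In this cluster Ctsd had 9384 CPM in intervention, 9835 in late and 6895 in early db/db cells, and Ctsl had 834, 2969 and 416 CPM. The 3 control cells held 195 UMIs of Ctsd and 16 of Ctsl among 35533, where all 85 macrophage-like cells of the control held 649 and 116. Without the cluster, 4 members in place of 10 were 2-fold apart between late db/db and the control: Ctsd at 2.18, Atp6v1b2 at 1.67, Atp6v0d2 and, lower, Ctss at -1.6. Ctsl was then at 0.60, Ctsb at 0.94 and Atp6v1a at 0.89. For early db/db 1 in place of 4 was left, Ctsd at 1.74. The shares of all genes 2-fold apart without the cluster are not given here.

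**Figure D4:**
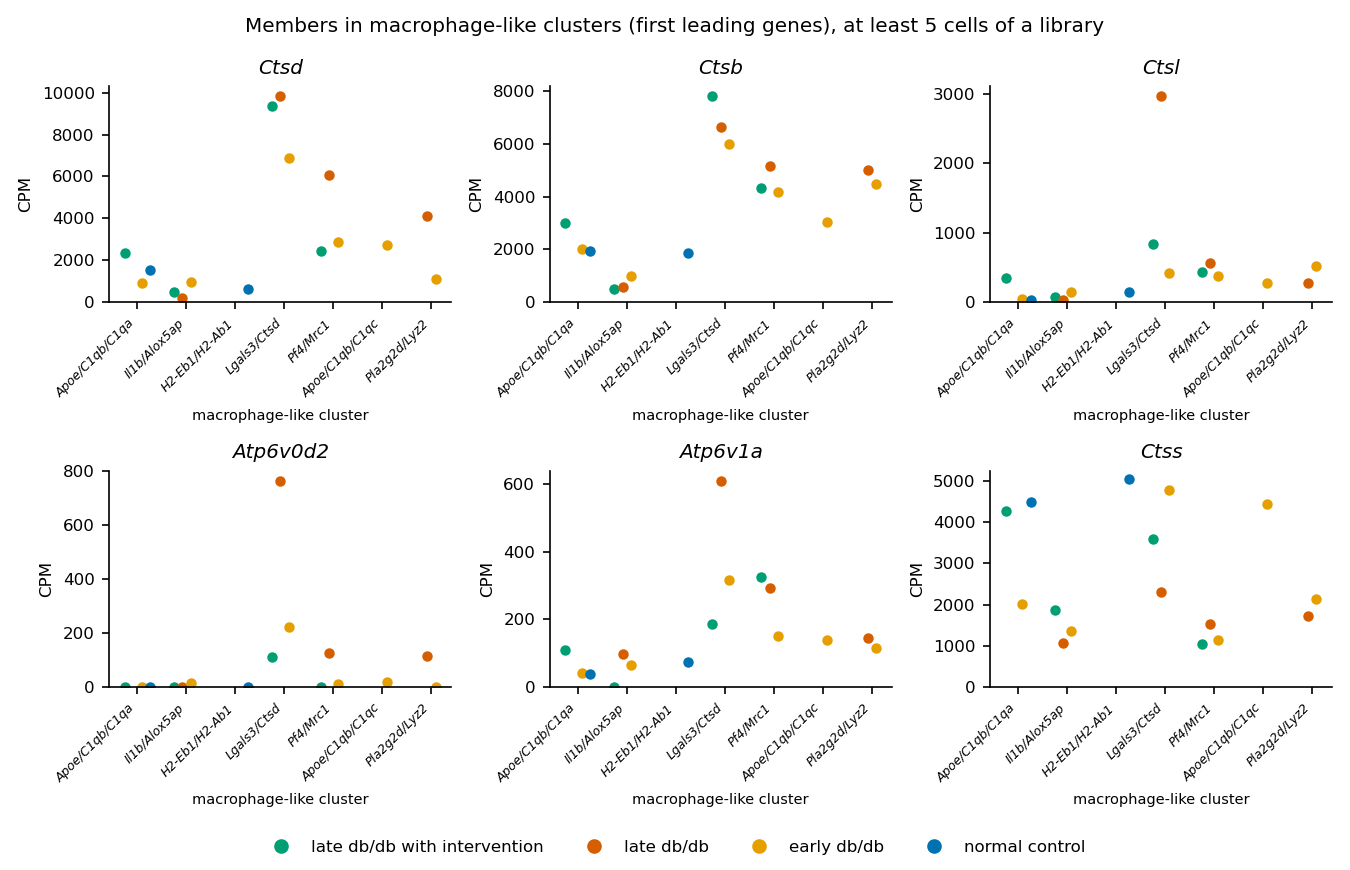
CPM of 6 members in each macrophage-like cluster, named by its first leading genes, with 1 point for each library that has at least 5 cells there. The cluster led by Lgals3 holds the highest Ctsd and Ctsb of the libraries seen there, and the highest Atp6v0d2 and Ctsl points are its 9 late db/db cells.

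Outside that cluster Ctsd differed as well. In the Pla2g2d-led cluster 47 late db/db cells had 4129 CPM. In the cluster led by Apoe, C1qb and C1qa 71 intervention cells had 2330.5 CPM, 6 early db/db cells 926 and 12 control cells 1539. The 64 control cells of the H2-Eb1-led cluster had 642 CPM of Ctsd and 5052 of Ctss. A cluster led by Il1b, with Ccr2, held 5 intervention, 32 late and 36 early db/db cells, with 487, 212 and 944 CPM of Ctsd. Without it, 5 members in place of 3 were 2-fold apart between intervention and late db/db, with Ctsl at -1.31 and Atp6v1a at -1.09. The share of all genes without it is not given here.

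RNA of other cell types was present among macrophage-like cells. The 12 T and NK cell markers summed to 37.1, 317, 57.9 and 13.5 CPM in the intervention, late, early and control libraries, with 1, 10, 6 and 3 of them seen. The 11 acinar markers summed to 365, 1166, 5152 and 253 CPM with 11, 11, 11 and 10 seen, and the 6 neutrophil markers to 103, 124, 1144 and 29.7 CPM with 4, 3, 6 and 1 seen. Their part in the results was not tested.

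Other lysosomal genes differed too in macrophage-like cells, where 21.1% of all genes were higher in late db/db than in the control, 5.82% lower and 26.9% apart. Of 28 other hydrolases and cofactors that entered, 10 were called higher in late db/db than in the control and 1 lower, with a median of 0.50 against 0.35 over all genes. Acp5, the tartrate-resistant acid phosphatase of osteoclasts and macrophages, had 1052 CPM in late db/db, against 174 CPM in the control, and Psap had 7199.8 CPM in late db/db, against 3414 CPM in the control. Among the others were Acp2, Gla, Tpp1, Naglu, Gaa, Galc and Neu1, with log2 ratios of 2.14, 1.96, 1.58, 1.41, 1.21, 1.64 and 1.23.

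Of 6 cathepsin inhibitors and activators, 4 were higher and 1 lower, to be read beside the 21.1% and 5.82% of all genes. The inhibitor Cstb had 1072 CPM in late db/db, against 346 CPM in the control, and the serpin Serpinb6a had 149 CPM in late db/db, against 33.8 CPM in the control. The other 2 that were higher had too few UMIs in the control for a fold to be given. Cst7, a cystatin, had 138 UMIs in late db/db, against 1 UMI in the control, and Serpina3g had 190 UMIs in late db/db, against 0 UMIs in the control. Cst3 was lower, with 1698 CPM in late db/db, against 10094 CPM in the control, and it had 7142 CPM in the intervention library. Of 9 membrane proteins, Lamp1 was higher with 1578 CPM in late db/db, against 637 CPM in the control. Of 11 regulators, Mitf, a relative of TFEB, was higher with 78.1 CPM in late db/db, against 21.6 CPM in the control, and Lamtor3 was lower with 18.2 CPM in late db/db, against 63.5 CPM in the control. The assembly factor Rogdi, at 124 CPM in late db/db, against 55.4 CPM in the control, was the higher one of 4, and the sorting receptor M6pr was higher with 242 CPM in late db/db, against 107 CPM in the control.

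Between intervention and late db/db Cst3 at 2.07 and Lgmn, a protease that matures cathepsins, at 1.52 were higher on the log2 scale, as were 5.99% of all genes, while 15.3% were lower. Cst7 had 0 UMIs in the intervention library, against 125 CPM in late db/db, and Serpina3g had 0 UMIs there, against 173 CPM in late db/db. Cstb at -1.23 and Mitf at -1.84 were lower.

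In endothelial-like cells 3 of 18 members were called higher in late db/db than in the control, Ctsd, Ctsh and Ctsl, where 8.79% of genes were higher, 8.99% lower and 17.8% apart. Ctsl had 856 CPM in the intervention library, 1334 in late and 746 in early db/db, and 573 in the control. Ctsd had 316, 542, 347 and 230.2 CPM in the same order. Both values rest on 2 small clusters with cells of late db/db alone. The 21 cells of one, led by Lyve1 and with Marco, had 1643 CPM of Ctsd, 1892 of Ctsl and 198 of Ctsh, and the 24 cells of the other, led by Glycam1, had 1808 CPM of Ctsl. Without them 0 members were called, with Ctsl at -0.07 and Ctsd at 0.46, and the share of all genes is not given here. Ctsh was still at 3.4, with 4 UMIs in the control, and no longer entered, since it fell under 50 CPM. Most control cells, 161 of 205, lay in a cluster led by Esm1. Within the Fabp4-led cluster that all 4 libraries shared, Ctsl had 846 CPM in 220 intervention cells, 545 in 79 late and 746 in 425 early db/db cells, and 467 in 44 control cells.

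Ctsh in endothelial-like cells had 15.3 CPM in the intervention library, 55.5 in late and 8.58 in early db/db, and 1.99 in the control. Its log2 ratio between intervention and late db/db was -1.86 [-2.8, -1.03], and -0.46 without the 2 clusters. It was the only member of 18 called there, against 8.49% of genes lower, 7.81% higher and 16.3% apart. The 14 macrophage markers summed to 42.5, 79.2, 14.8 and 24.9 CPM in endothelial-like cells in the order of the libraries, with 8, 8, 6 and 11 seen, and their part in this was not tested. In early db/db against the control 0 of 18 members were 2-fold apart, where 8.21% of genes were, 4.36% higher and 3.85% lower. Ctsb stood at 0.73 [0.55, 0.91] there and Ctsz at -0.67 [-0.88, -0.46].

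Ctsg, a serine protease known from neutrophils and mast cells, was seen among endothelial-like cells of the db/db libraries. It had 20 UMIs in the intervention library, 27 in late and 60 in early db/db, and 0 in the control, and so stayed below 50 CPM and did not enter. The levels were 21.8, 20 and 28.6 CPM against a floor of 1.49 CPM for 3 UMIs over the control's cells. They were thus at 14.6, 13.4 and 19.1 times this floor, which leaves out the counting error of the db/db libraries. The UMIs lay in 15 of 222, 13 of 124, 43 of 425 and 0 of 205 cells, and 0 of 205 allows a share of up to 1.46%. Thinned to 3000 UMIs per cell, the expected shares were 4.73%, 3.52%, 7.69% and 0%, against 6.76%, 10.5%, 10.1% and 0% unthinned, with 66, 18, 134 and 23 shallower cells left out. In beta-like cells, at median depths of 41497 to 86720 UMIs, 0 cells had it in any library. Of the 27 UMIs of late db/db, 20 lay in the Glycam1-led cluster. In the Fabp4-led cluster there were 20 UMIs in 220 intervention cells, 7 in 79 late and 60 in 425 early db/db cells, and 0 in 44 control cells. The other 161 control cells lay in the Esm1-led cluster, which held 0 late and 0 early db/db cells. The floor uses all 205 control cells and was not recomputed for the shared cluster. The 6 neutrophil markers summed to 2.18, 0, 0 and 0 CPM in endothelial-like cells and the 5 mast cell markers to 2.18, 42.2, 3.34 and 7.97 CPM, in the same order.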

How the data were processed

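The authors deposited matrices of UMI counts, whole numbers with no normalization, from 10x Genomics 3′ version 3 chemistry per the labels' protocols. The submitters' processing notes name CASAVA 1.8, Cell Ranger, Seurat and mm10 with no roles, and the matrix headers give software version 3.0.0. From these counts, cells with at least 1000 UMIs, 500 genes and at most 20% mitochondrial UMIs were kept, and the highest Scrublet scores (0.8% per 1000 cells) were removed as likely doublets. That left 4906 cells of late db/db with intervention, 5983 of late db/db, 4616 of early db/db and 4458 of the normal control, with 26430.5, 6190, 14544.5 and 25984 median UMIs. Cells were clustered with scanpy 1.11.5 (2000 variable genes without the members and other lysosomal genes, 30 components, 15 neighbours, Leiden resolution 1). Macrophage- and dendritic-like clusters were clustered once more, a choice made after seeing the data.

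Ratios of CPM carry exact conditional binomial 95% intervals, and Poisson intervals were used for levels. The ratio script was run on simulated counts with counting error alone. This checks the arithmetic and cannot speak to spread between cells, clusters or animals. TMM factors came from edgeR 4.0.16. Promoters are RefSeq's. Values in all 4 libraries were named for members at least 2-fold apart in beta-like cells, for the 3 highest and 3 lowest called members of each other class, for a fixed set of subunits and cathepsins, and for paralogous subunits. The members and lists were chosen with earlier results of these data known. Values of some listed lysosomal genes are not reported here, though counts over the lists include them. Ctso outside beta-like cells, Ctsf, Ctsg and Atp6v0a4 were named after their values were seen. The early db/db matrix is named like another control, and its group was taken from its label. Alternatives were other denominators, cell filters, doublets kept, other resolutions, members allowed in clustering, free RNA subtracted (1 share per library, from insulin UMIs in endothelial- and macrophage-like cells), means over cells and other minimums and folds. The free RNA profile came from barcodes under 1000 UMIs, which may be small cells. UMIs count molecules, and intervals and floors cover counting error only.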

Additional observations from a re-analysis of the deposited data

Results flagged for a closer look

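With 1 library per group, no sample has others of its group to be set against. Each result below is a member that was at least 2-fold apart in a class and lay on the other side of 0, interval included, in another class under the same comparison. The difference between the classes was not tested, since each rests on 1 library per group. Values are log2 ratios.

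Pump genes of the V1 part differed between macrophage- and beta-like cells. In late db/db against the normal control, Atp6v1a stood at 1.70 in macrophage- and -0.89 in beta-like cells, Atp6v1b2 at 1.8 and -0.62, and Atp6v1c1 at 1.45 and -0.46. Atp6v1d stood at 1.03 in macrophage-, -0.50 in beta- and -0.27 in delta-like cells. Atp6v1e1 stood at 1.14 in macrophage-, -0.65 in beta-, -0.22 in alpha- and -0.58 in endothelial-like cells. In early db/db against the normal control, Atp6v1a stood at 1.08 in macrophage- and -0.89 in beta-like cells and Atp6v1b2 at 1.08 and -0.45. With all UMIs as the denominator, 7 of the 8 V1 genes of beta-like cells, all but Atp6v1a, lay above 0 in late db/db. Without the macrophage-like cluster with Gpnmb, which held 9 late db/db cells, the macrophage values of late db/db were 0.89 for Atp6v1a, 1.67 for Atp6v1b2, 0.70 for Atp6v1c1, 0.66 for Atp6v1d and 0.45 for Atp6v1e1, so that 1 of the 5 stayed 2-fold apart. Those of early db/db were 0.68 for Atp6v1a and 0.93 for Atp6v1b2, both under 2-fold.

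For Ctsh the endothelial-like cells stood apart. In late db/db against the normal control it stood at 4.80 there, with 4 UMIs in the control, at -0.64 in delta- and at -0.66 in macrophage-like cells. In late db/db with intervention against late db/db it stood at -1.86 in endothelial- and 1.01 in macrophage-like cells. Without the 2 endothelial-like clusters seen in late db/db alone, the endothelial values were 3.40 for late db/db against the normal control, at too low a level to enter, and -0.46 for intervention against late db/db. The macrophage value of the intervention comparison lay between 0.86 and 1.21 under the alternatives and fell under 2-fold in 5 of 11.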

How the results depend on the processing

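No paired analysis was possible because each group has 1 library, and no library could be left out. Of 231 recomputed ratios of called members, 190 stayed at least 2-fold, and 9 of 22 called results did so under every alternative. Of 189 recomputed counts of members 2-fold apart, 145 stayed within 1.5 times the reported count. The cause of a move was not tested. Shares of all genes under each alternative are not given here, so the counts below cannot be set beside them.

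Late db/db against the normal control, beta-like cells (2 reported): 5 with all UMIs as the denominator, 7 with no minimum of CPM and 6 at 1.5-fold. Early db/db (1): 4 with all UMIs, 2 with TMM, with free RNA subtracted, with means over cells or with 10 CPM as the minimum, 4 with no minimum and 5 at 1.5-fold. Intervention against late db/db (0): 4 with no minimum.

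Alpha-like cells (0 reported in each comparison): late db/db had 1 with 10 CPM and 4 with no minimum, early db/db 2 with no minimum and 1 at 1.5-fold, and intervention 3 with no minimum. Delta-like cells (0 in each): free RNA subtracted gave 1 in each comparison, no minimum gave 2, 2 and 3 in late db/db, early db/db and intervention, and 1.5-fold gave 1 in late and 4 in early db/db.

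Macrophage-like cells: late db/db (10) had 6 with means over cells and 4 without the cluster with Gpnmb. Early db/db (4) had 2 with TMM or resolution 0.5, 1 with means over cells or without the cluster with Gpnmb, and 7 at 1.5-fold. Intervention (3) had 5 with free RNA subtracted or without the Ccr2 cluster, 6 with no minimum and 9 at 1.5-fold.

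Endothelial-like cells: late db/db (3) had 0 without the 2 late-only clusters, where the log2 ratio of Ctsl turned to -0.072 and Ctsh, at 3.40, fell under the minimum of CPM. Early db/db (0) had 1 with 10 CPM, 3 with no minimum and 3 at 1.5-fold. Intervention (1) had 2 with doublets kept, 0 with free RNA subtracted or without the late-only clusters, and 4 with no minimum or at 1.5-fold. Leaving out clusters was chosen after seeing the data. Depth limits macrophage- and endothelial-like cells most, as for Ctsh, which had 4 UMIs in endothelial-like cells of the normal control.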
